A study of Mus musculus with 17 samples.

Results

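LIN54 occupancy was compared between the urothelium of Stag2-WT and Stag2-KO mice, at the ends of protein-coding genes and in distal regions of chromosomes 1 to 19. The material was the peak lists of every library made with the LIN54 antibody: 3 Stag2-WT and 2 Stag2-KO libraries, which are 5 of the 17 labelled samples and of the 15 with a peak list. The study mapped chromatin proteins by CUT&RUN, in which an antibody directs a fusion of protein A and micrococcal nuclease to cut and release the DNA around its target; its other antibodies were STAG2, a cohesin subunit, and p130, the product of Rbl2. Tissue was peeled urothelium, the epithelial lining of the bladder, taken 1 week after TMX (tamoxifen) induction, with about 500000 cells per condition. All 5 LIN54 libraries belong to batch 1, are labelled as biological replicates, and both genotypes had received TMX; the Cre driver, age and sex are not given in the sources used here. Nothing states whether a library pools several animals, so p-values measure only the spread between these libraries.

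LIN54 is the DNA-binding subunit of MuvB, a complex that also holds LIN9, LIN37, LIN52 and RBBP4 and that recognises the cell cycle genes homology region (CHR) in promoters. With p130 or p107, E2F4 or E2F5 and a DP protein, MuvB forms the DREAM complex, which represses cell cycle genes in quiescent cells. In cycling cells MuvB instead joins B-MYB and FOXM1, which activate genes of late cell cycle phases, and cohesin with STAG2 shapes chromatin contacts and holds sister chromatids together.

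To show what lay under LIN54 peaks, 7 promoters are printed, all but that of the cell cycle gene Ccnb2 outside the best known targets. Each is given as the 250 bases upstream of the start in RefSeq (build GRCm38.p6), 5′ to 3′ on the gene's own strand. Capitals mark 2 motifs, each searched on both strands. The first is CCAAT, the element of NF-Y. The second is the CHR, spelled TTTGAA; another spelling accepted was TTCGAA. Slc25a42 stood for promoters marked in every library and was chosen after its letters were seen. It was taken from 8 promoters of genes whose ends ranked best over all libraries. Of these 8 it held the most CCAAT, while 4 held a CHR and 2 held no CCAAT. Among the 8, the promoters of Agpat1 and Zbtb20 had no peak in some libraries. R3hdm1 and Zranb3 use the 2 strands of nearly the same bases, so their CHR is counted 2 times. Myo10, Rab3a and Paqr3 stood for promoters marked in both KO libraries alone. Ip6k2 and the cyclin gene Ccnb2 stood for promoters marked in all 3 WT libraries alone. Fnbp4, chosen after its values were seen, stood for promoters ranked high in WT alone.
Slc25a42, chr8:70212282-70212531, minus strand: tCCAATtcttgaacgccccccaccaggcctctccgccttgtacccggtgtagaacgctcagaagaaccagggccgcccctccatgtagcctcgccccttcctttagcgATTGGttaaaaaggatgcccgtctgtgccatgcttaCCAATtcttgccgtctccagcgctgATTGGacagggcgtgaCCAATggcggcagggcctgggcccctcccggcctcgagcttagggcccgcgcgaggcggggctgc
Myo10, chr15:25622300-25622549, plus strand: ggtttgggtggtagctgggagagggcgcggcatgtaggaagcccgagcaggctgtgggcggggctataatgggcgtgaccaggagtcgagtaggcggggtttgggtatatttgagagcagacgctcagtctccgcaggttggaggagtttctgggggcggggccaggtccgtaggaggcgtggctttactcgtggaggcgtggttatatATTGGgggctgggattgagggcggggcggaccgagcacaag
Rab3a, chr8:70754453-70754702, plus strand: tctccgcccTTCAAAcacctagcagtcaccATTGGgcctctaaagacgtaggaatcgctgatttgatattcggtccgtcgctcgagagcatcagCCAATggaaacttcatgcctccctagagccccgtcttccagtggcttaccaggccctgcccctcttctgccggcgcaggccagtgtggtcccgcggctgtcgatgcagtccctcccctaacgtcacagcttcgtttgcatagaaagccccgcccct
Paqr3, chr5:97111597-97111846, minus strand: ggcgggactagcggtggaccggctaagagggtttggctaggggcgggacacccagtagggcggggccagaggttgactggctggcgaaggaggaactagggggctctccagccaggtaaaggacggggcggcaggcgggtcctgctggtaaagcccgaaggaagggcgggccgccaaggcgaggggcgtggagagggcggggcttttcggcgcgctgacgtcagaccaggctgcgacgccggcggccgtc
Ip6k2, chr9:108783562-108783811, plus strand: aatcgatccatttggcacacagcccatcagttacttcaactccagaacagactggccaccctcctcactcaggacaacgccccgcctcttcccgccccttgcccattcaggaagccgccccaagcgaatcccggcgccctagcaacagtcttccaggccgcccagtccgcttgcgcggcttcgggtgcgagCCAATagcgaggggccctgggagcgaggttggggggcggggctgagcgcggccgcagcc
Ccnb2, chr9:70421555-70421804, minus strand: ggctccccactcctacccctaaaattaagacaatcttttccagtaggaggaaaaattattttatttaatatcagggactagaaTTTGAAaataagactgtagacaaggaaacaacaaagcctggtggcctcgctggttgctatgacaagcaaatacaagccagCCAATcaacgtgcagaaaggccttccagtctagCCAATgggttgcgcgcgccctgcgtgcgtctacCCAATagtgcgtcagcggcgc
Fnbp4, chr2:90745308-90745557, plus strand: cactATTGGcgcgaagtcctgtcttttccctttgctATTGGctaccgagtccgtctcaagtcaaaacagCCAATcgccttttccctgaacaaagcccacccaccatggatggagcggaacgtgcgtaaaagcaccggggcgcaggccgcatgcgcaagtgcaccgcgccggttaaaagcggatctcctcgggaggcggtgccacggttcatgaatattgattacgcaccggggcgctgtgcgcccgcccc
The Slc25a42 window held 5 CCAAT and no CHR, and that of Fnbp4 held 3 CCAAT. Rab3a had 2 CCAAT and 1 CHR, Myo10 had 1 CCAAT, Paqr3 had neither, Ip6k2 had 1 CCAAT, and Ccnb2 had 3 CCAAT and 1 CHR. Over the promoter table (250 bases before to 50 after the start; 16456 of 20661 genes had an entry), CCAAT was found in 38.9% and the CHR in 17.4% of all promoters. A match describes letters in a window and does not show a site.

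The lists held every peak the authors called down to p 0.05, 297084 to 367179 per library on these chromosomes, so a peak was taken as called at q 0.01. Each library's total number of fragments is not in the lists; median background was 1.53 to 1.78 fragments per base in the WT and 1.62 to 1.72 in the KO libraries, so by this measure of depth the groups overlapped. Chromosome X, not analysed further, held 3.16% to 5.09% of the deposited peaks of the WT libraries and 0.486% and 0.744% of those of the KO libraries. Chromosome Y held 13, 30 and 8 deposited peaks in WT and 36 and 174 in KO. With sex not given, any difference in sex between the groups cannot be told apart from genotype. The part of X and Y in the results was not tested. In the STAG2 libraries, which are other samples with the same genotype labels, 25604 and 13193 peaks passed q 0.01 in WT and 1229 and 6752 in KO. These numbers do not check the genotype of any LIN54 library. At q 0.01 no LIN54 library marked the end of any of 10 endothelial marker genes or 30 genes of other tissues. KO library 1 alone marked 3 of 12 fibroblast markers (Col1a1, Col1a2 and Col3a1). It alone also marked 3 of 10 smooth muscle markers (Lmod1, Smtn and Acta2, which shares its peak with Stambpl1). Both KO libraries marked Cd68, 1 of 14 immune markers. No WT library marked any member of those 3 marker lists. Over all gene ends KO library 1 marked 22.5%, near its 25% of fibroblast and 30% of smooth muscle markers. Both KO libraries marked 16.5% of all gene ends, and the WT libraries 7.09% to 13.6%. The part of these markers in the results was not tested.

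More LIN54 peaks passed the threshold in the KO than in the WT libraries, and at that threshold a larger share of the KO peaks was distal. The 3 WT libraries had 4729, 6512 and 2134 peaks at q 0.01, and the 2 KO libraries had 15641 and 12915. Every KO library was above every WT library, and the ratio of the KO mean to the WT mean was 2.71 to 3.73 over the 19 chromosomes. The WT libraries had a log2 number of 11.98 ± 0.83 (SD, n = 3) and the KO libraries one of 13.79 ± 0.20 (SD, n = 2), a difference of 1.82 (two-sided exact permutation test, p = 0.1, adjusted 0.15 over 3 tests). A p of 0.1 is the smallest that 3 libraries against 2 allow. WT library 3 had the fewest peaks, and without it the difference was 1.36.

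A peak counted as at a gene end if a protein-coding gene started or ended 500 bp or less from its summit, and as distal if no such gene started or ended within 5 kb. At q 0.01, 39.4%, 36.6% and 57.2% of the WT peaks and 25.9% and 28.9% of the KO peaks were at gene ends. Means were 44.4% ± 11.2 (SD, n = 3) and 27.4% ± 2.16 (SD, n = 2), so KO minus WT was -17.0 percentage points (two-sided exact permutation test, p = 0.2, adjusted 0.2). Distal peaks made up 42.6%, 44.3% and 27.0% in WT against 55.9% and 52.4% in KO, 16.2 points more in KO (exact permutation test, p = 0.1, adjusted 0.15). Without WT library 3 these differences were -10.6 and 10.7 points.

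The direction depended on the length at which lists were cut. Among the 10000 best peaks of each library by the authors' p, 24.5%, 28.5% and 20.7% were at gene ends in WT and 33.2% and 33.1% in KO, 8.62 points more in KO. Distal shares were then 58.9%, 52.6% and 64.9% in WT and 48.6% and 48.5% in KO, 10.2 points fewer (KO minus WT -10.2). In every library the share at gene ends fell along the list: it was 65.6% to 77.0% among the 500 best peaks and 7.24% to 24.02% over the 5000 ranks up to 10000. The peak at rank 10000 had a q of 0.0670, 0.0260 and 0.177 in the WT lists and 0.00124 and 0.00228 in the KO lists. Among the 5000 best peaks the distal shares overlapped, at 43.9%, 39.0% and 50.3% in WT and 40.4% and 40.0% in KO. Among the 2000 best peaks the directions were those seen at q 0.01, with smaller gaps: 55.75%, 56.25% and 58.55% of WT peaks and 53.5% and 55.05% of KO peaks were at gene ends (difference -2.575 points, exact permutation test, p = 0.2), and 26.7%, 26.85% and 25.65% against 29.95% and 29.8% were distal (difference 3.475 points, exact permutation test, p = 0.1).

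**Figure D1:**
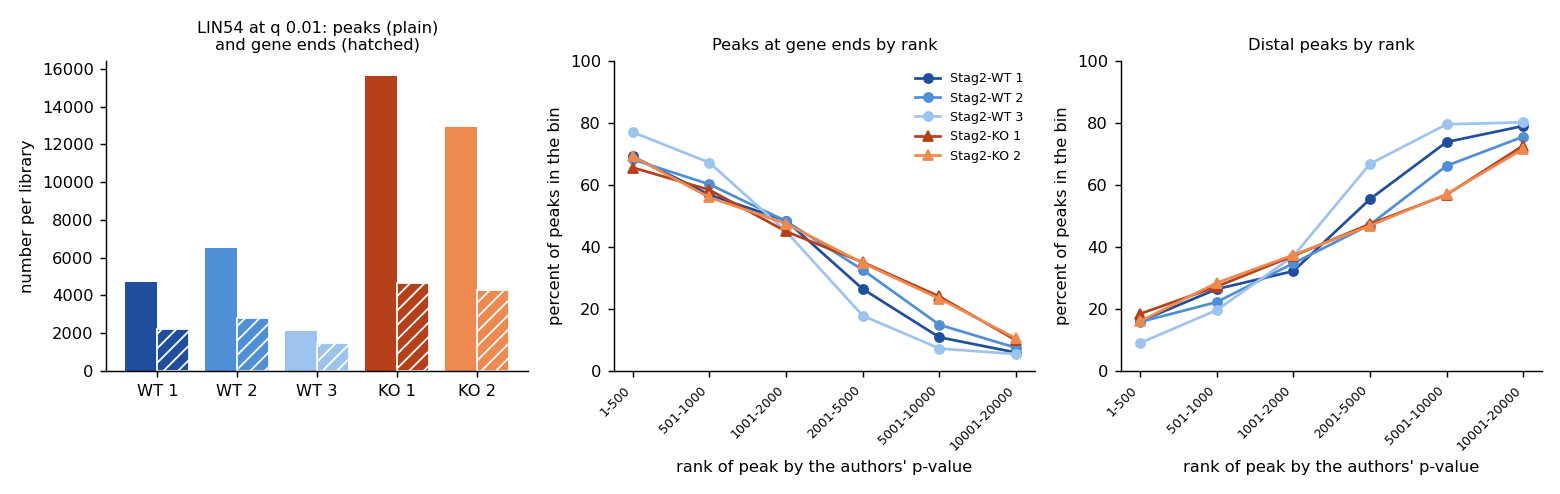
LIN54 peaks by library. Left, bars starting at 0 give the number of peaks at q 0.01 (plain) and of gene ends with such a peak (hatched) for each library. Middle and right, points give the share of gene end peaks and of distal peaks, in percent, within bins of rank by the authors' p-value; circles are WT and triangles KO libraries. The 2 KO libraries have 15641 and 12915 peaks against 2134 to 6512 in WT, while the curves lie closer together over the best 2000 ranks than over the last bins.

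At gene ends the highest ranked LIN54 peaks were shared by the genotypes. Of 20661 protein-coding genes, 2225 (10.8%), 2811 (13.6%) and 1465 (7.09%) had a peak at q 0.01 at an end in the WT libraries, and 4639 (22.5%) and 4310 (20.9%) in the KO libraries. In all 5 libraries 996 genes (4.82%) were marked, and 3400 (16.5%) in both KO libraries. To remove the difference in list length, each library's 2000 best gene ends were compared, which is 9.68% of all in each. Any pair of WT libraries shared 1276 to 1417 of these, the KO pair shared 1487, and a WT and a KO library shared 1253 to 1433. So a WT and a KO library overlapped about as much as WT libraries did with each other, and 908 gene ends (4.39%) were among the 2000 best of all 5.

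Outside cell cycle and ribosomal protein genes, the gene ends with the best mean rank in all 5 libraries included those of Gsk3b, Slc25a42 and Tmem80. Fold over background at the summit is the authors' value, used only to describe and rank peaks within a list; it is given in the order WT 1, WT 2, WT 3, KO 1, KO 2. Folds were higher in the KO lists as a whole at equal rank: the peak at rank 2000 had a fold of 5.18, 5.06 and 4.31 in WT and 7.96 and 7.41 in KO. For this reason a higher KO fold at 1 gene is given as a value and not as a change. Gsk3b, a kinase that marks beta-catenin for destruction, had folds of 33.6, 41.3, 31.3, 34.5 and 60.5. Slc25a42, a mitochondrial carrier of coenzyme A, had 26.1, 24.2, 16.8, 34.3 and 30.8. Tmem80 had 23.4, 27.5, 17.7, 35.9 and 79.8. WT library 3 was lowest at all 3 genes, and WT and KO values overlapped at Gsk3b alone.

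The end shared by Rnf5, an E3 ubiquitin ligase of the endoplasmic reticulum, and Agpat1, an enzyme of phospholipid synthesis, had 23.0, 24.8, 17.5, 28.2 and 32.7. Srgap2, which regulates actin through small GTPases, had 13.9, 19.97, 12.8, 46.0 and 41.0, and the transcription factor gene Zbtb20 had 15.6, 16.3, 8.42, 33.7 and 30.5. At all 3 of these ends both KO folds were above every WT fold. Kctd9 shared its peak with the G2/M target Cdca2 (15.0, 19.1, 15.0, 30.6 and 28.4), and R3hdm1 shared its with Zranb3 (24.2, 35.0, 11.9, 31.7 and 36.4).

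The genes of LIN54's own complexes were marked more often than all gene ends, though the list is short. Among the 14 DREAM and MuvB genes, 3, 6 and 2 had a peak at q 0.01 in WT and 5 and 7 in KO, which is 21.4%, 42.9%, 14.3%, 35.7% and 50% against the 10.8%, 13.6%, 7.09%, 22.5% and 20.9% of all ends. Among the 2000 best ends were 3, 3, 2, 2 and 2, which is 21.4%, 21.4%, 14.3%, 14.3% and 14.3% against the 9.68% of all ends. Lin52, whose end is shared with Aldh6a1, had folds of 10.9, 11.5, 8.13, 17.7 and 18.2, and the histone chaperone gene Rbbp4, which shares its end with Zbtb8os, had 6.24, 6.10, 4.57, 12.4 and 10.8; these were the only members marked in all 5 libraries. Lin54 itself had 3.61, 2.97, 3.14, 2.66 and 2.42, with no value passing q 0.01. Rbl2, which encodes p130, passed in 3 libraries (3.42, 4.01, none, 4.32 and 3.85), and Tfdp2, a DP partner of E2F, only in both KO libraries (none, none, 3.15, 3.85 and 4.14). The lists held no peak at the ends of Lin9 or Tfdp1, and Mybl2 (B-MYB) and Foxm1 had folds of at most 2.62 and 3.12 with none at q 0.01.

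LIN54 was frequent at gene ends of protein folding and stress response genes in every library. The lists of gene functions (44 lists, 2112 genes) were read against the 9.68% of all gene ends. Of 37 genes of the unfolded protein response, 18, 15 and 19 were among the 2000 best ends in WT and 18 and 19 in KO. Of 50 heat shock and chaperone genes the counts were 19, 24 and 24 in WT and 25 and 24 in KO. The median rank of these genes among all gene ends was 1835 to 2528 for the unfolded protein response and 1981 to 2632 for the chaperones, against 10331 or no peak for all genes. WT and KO counts overlapped in both lists. At Eif2ak3, the PERK kinase that slows translation under endoplasmic reticulum stress, folds were 20.5, 18.6, 17.5, 15.1 and 16.8, so lower in both KO libraries, over 55, 47, 48, 60 and 67 fragments, which were more in both. Another member was Manf, a factor secreted under that stress (7.32, 10.1, 6.60, 21.8 and 21.0). Among chaperones, Hsp90b1, the HSP90 of the endoplasmic reticulum, which shares its end with Ttc41, had 9.73, 10.1, 7.77, 16.8 and 16.6, and Hsph1 had 7.74, 12.6, 8.92, 15.3 and 18.9.

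Clock and immediate early genes were also often marked. Of 22 circadian clock genes, 10, 8 and 11 were among the 2000 best ends in WT and 7 and 9 in KO. Of 46 immediate early genes, those induced within minutes of a stimulus, the counts were 20, 16 and 16 in WT and 17 and 17 in KO. Per1, a repressor of the clock, had folds of 16.6, 14.3, 10.8, 29.3 and 17.8, and Ciart, a clock-controlled repressor, 6.47, 6.46, 6.11, 11.8 and 10.5. The immediate early transcription factors Egr1 (17.9, 22.7, 10.1, 32.8 and 29.9) and Jun (8.48, 9.24, 6.13, 15.0 and 13.0) were marked in all 5 libraries.

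Several metabolic and trafficking lists lay above the background in every library. Counts among the 2000 best ends were 11, 6, 9, 8 and 9 of 25 for the citric acid cycle, 11, 10, 8, 10 and 12 of 34 for cholesterol synthesis, and 19, 17, 21, 18 and 16 of 57 for endocytosis and endosomes. Splicing factors and hnRNPs had 18, 19, 25, 20 and 24 of 69. The WT and KO counts overlapped in each of these lists. Aco1, which switches between aconitase and iron sensor, had folds of 10.7, 16.5, 9.71, 22.3 and 33.2. Pcx, pyruvate carboxylase, had 15.4, 12.7, 9.46, 14.4 and 18.2, and Hmgcs1, an early enzyme of cholesterol synthesis, had 10.5, 7.45, 8.37, 5.48 and 6.07, with both KO folds below every WT fold. At Hmgcs1 the summits held 27, 19, 22, 32 and 36 fragments, so fragment numbers were again higher in KO. Xpo1, the nuclear export receptor, had 9.12, 8.07, 9.34, 25.6 and 23.6, and the histone demethylase gene Kdm4a had 24.98, 28.5, 10.1, 31.4 and 39.0.

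Genes of urothelial identity and of the Wnt and Hippo pathways lay near or below the background. Of 35 luminal urothelium genes, such as uroplakins and keratins, 2, 2, 1, 0 and 2 were among the 2000 best ends, of 23 basal genes 1, 1, 0, 1 and 0, and of 39 HOX genes 1, 1, 2, 1 and 1. For Wnt genes the counts were 6, 6, 6, 7 and 5 of 61, and for Hippo genes 3 in each library, of 38. Among luminal genes Cldn4, a claudin, had folds of 6.08, 4.80, 3.22, 4.51 and 5.58, and Upk2, a uroplakin, 2.39, 5.96, 3.16, 4.32 and 4.79. For comparison, the G2/M targets of DREAM had 26, 26, 27, 23 and 28 of 86, the G1/S targets 24, 22, 21, 23 and 22 of 88, and the cytosolic ribosomal proteins 22, 21, 16, 22 and 19 of 75. The share among the best ranked ends was thus higher in each library for the unfolded protein response and the chaperones than for these 3 comparison lists. No test was made of these differences, since the lists were chosen with earlier results known.

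Between genotypes the function lists hardly differed once lists were of equal length. At q 0.01, 41 of the 44 lists had more marked members in each KO library than in each WT library. Among the 2000 best ends, 41 lists overlapped between the genotypes. In 2 lists both KO counts were above every WT count: translation factors (14, 15 and 14 against 16 and 17 of 52) and apoptosis and p53 target genes (6, 7 and 6 against 9 and 8 of 48). In 1 list, histone acetylation, both KO counts were below (13, 13 and 13 against 10 and 12 of 52). These gaps amount to 1 or a few genes each and were not tested.

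**Figure D2:**
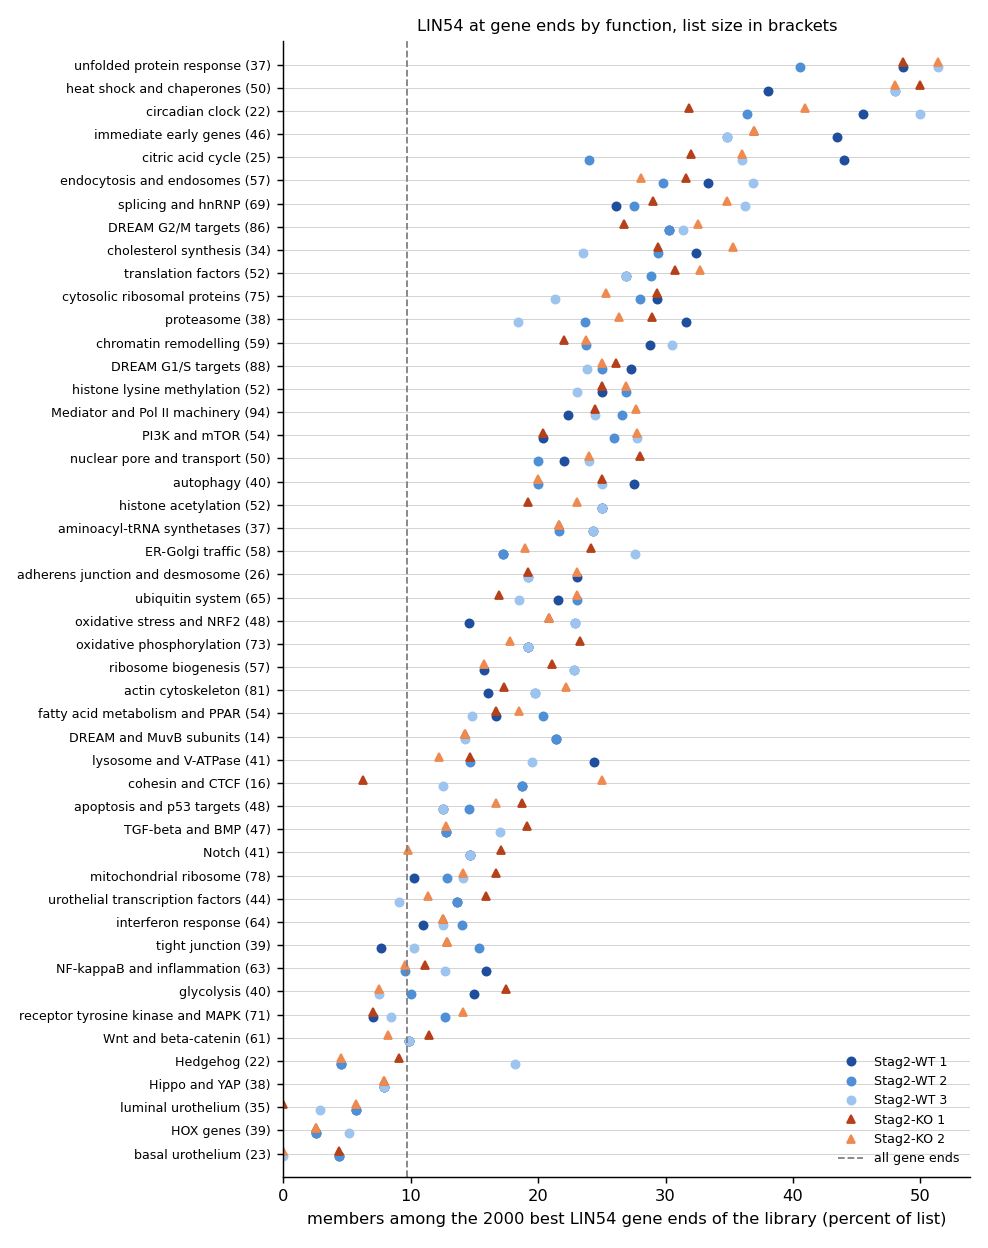
LIN54 at gene ends by gene function. Each row is a list, with its number of genes in brackets; each point is the percent of the list among the 2000 best LIN54 gene ends of 1 library (circles WT, triangles KO), and the dashed line is the 9.68% of all gene ends. Unfolded protein response, chaperone and circadian clock genes are highest, with circles and triangles mixed, and luminal, basal and HOX genes lie at or left of the line.

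Gene ends marked in both KO libraries and in no WT library at q 0.01 numbered 868 (4.2% of all gene ends), and those marked in all 3 WT libraries and in no KO library numbered 4 (0.0194%). The first class asks for 2 libraries and the second for 3; leaving out each WT library in turn gave 944 to 1343 in KO alone and 14 to 30 in WT alone. Most of the 868 were present in WT below the threshold: 468 (53.9%) had a deposited peak in all 3 WT libraries, and 23 (2.65%) in none. Among the 10000 best peaks of each library, KO alone held 372 gene ends (1.8%), WT alone 36 (0.174%) and all 5 held 1342 (6.5%). Among the 2000 best gene ends of each library the classes were close, with 88 (0.426%) in KO alone and 46 (0.223%) in WT alone. Leaving out each WT library there gave 125 to 163 and 109 to 124. Taking all deposited peaks, KO alone held 442 (2.14%) and WT alone 294 (1.42%). Of 3555 gene ends among the 2000 best of any library, 477 (13.4%) ranked better in each KO than in each WT library, and 377 (10.6%) the reverse.

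The best ranked ends in KO alone that are reported here were 9, led by Myo10. At Myo10, a myosin of filopodia, folds were 3.00, 2.60 and 2.93 in WT and 11.9 and 11.4 in KO, with 15, 13 and 15 fragments at the WT summits and 28 and 26 at the KO summits. The local background there also differed, 4.33 to 4.46 fragments in WT and 1.45 and 1.37 in KO, and its part in the call was not tested. The genotypes did not overlap there, in folds or in fragments. The q values chose Myo10 and the genes of the next paragraph, so their values are a description.

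Irf2bp2, a transcriptional corepressor, had no peak, 2.26 and 2.39 in WT against 10.01 and 10.99 in KO. Rab3a, a GTPase of regulated exocytosis, had no peak, 1.98 and 2.04 against 8.39 and 9.51, and Actr1a, a subunit of dynactin, had 1.98 in WT library 2 alone against 8.43 and 6.65. Use1, a SNARE of Golgi to endoplasmic reticulum transport, had no WT peak and folds of 9.75 and 7.01 over 25 and 17 fragments in KO. Slc25a51, the mitochondrial NAD carrier, had 2.66, 2.52 and 2.63 against 8.88 and 7.73, Paqr3 had 2.84, 2.97 and 3.19 against 9.63 and 6.80, and Ccdc82 had 3.00, 2.58 and 3.35 against 8.64 and 8.54. Ift80, a gene of ciliary transport, shared its peak with the condensin gene Smc4 (2.10, 2.80 and 1.86 against 10.7 and 7.35). Of these 9 ends, Myo10, Ccdc82 and Paqr3 left the class when the 10000 best peaks were compared, since the WT lists at that length reach past q 0.01. Paqr3 also left it among the 5000 best peaks and among the 2000 best ends.

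Within functions, KO alone at q 0.01 was read against what both KO libraries marked, which over all genes was 868 of 3400 (25.5%). In receptor tyrosine kinase and MAPK genes it was 8 of 17 (47.1%), among them Erbb3, a receptor of the EGF receptor family (3.48, 2.98, none, 5.17 and 3.77), and Etv6, an ETS family repressor (2.14, 3.26, 3.35, 5.08 and 6.64, shared with Gm46977). Apoptosis and p53 targets had 8 of 19 (42.1%), including Rrm2b, the p53-induced ribonucleotide reductase subunit (2.51, 3.41, 1.97, 8.51 and 7.42), and Cycs, cytochrome c (2.44, 2.04, 1.80, 10.4 and 5.01). At Cycs the summits held 12, 10 and 8 fragments in WT and 27 and 12 in KO, over a local background of 4.01 to 4.38 in WT and 1.69 and 1.59 in KO, so fragment numbers met and backgrounds did not. Wnt genes had 7 of 17 (41.2%), including the receptor gene Fzd4 (3.20, 3.27, 3.10, 7.48 and 6.67, shared with Tmem135). In contrast, heat shock and chaperone genes had 2 of 29 (6.90%), and histone acetylation genes 1 of 16 (6.25%). Among the 2000 best ends little of this was left: KO alone was 88 of 1487 over all genes, 0 of 5 for receptor tyrosine kinase and MAPK genes, 2 of 6 for apoptosis and p53 targets, 1 of 4 for Wnt genes, 2 of 22 for chaperones and 0 of 9 for histone acetylation. The differences between lists were not tested. None of the 44 function lists had a member in WT alone at q 0.01, while the G2/M targets, a comparison list, held Ccnb2.

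Other ends in KO alone included Wwtr1, the TAZ coactivator of the Hippo pathway (2.64, 3.52, 2.00, 7.51 and 6.39), and Gpx1, a glutathione peroxidase (3.57, 3.31, 2.79, 7.40 and 7.56). Smc3, a core cohesin subunit, had 1.88, 2.23, 1.86, 4.49 and 5.62. Pcbp1, an RNA-binding protein, had no WT peak and folds of 5.76 and 8.54. All genes named here as in KO alone were chosen by their q values, so the order of their values restates that choice.

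WT alone at q 0.01 held 4 gene ends. Ip6k2, an inositol phosphate kinase, had folds of 5.51, 5.86 and 4.63 in WT and 1.99 and 3.62 in KO, over 13, 13 and 11 against 7 and 10 fragments. Virma, a scaffold of the RNA adenosine methylation complex, had 4.51, 5.18 and 6.97 against 2.45 and 3.23, over 11, 12 and 18 against 8 and 11 fragments. Arl2bp had 5.28, 4.23 and 5.10 against 1.99 and 2.50, over 13, 9 and 12 against 7 and 10 fragments. The mitotic cyclin gene Ccnb2 had 4.66, 4.38 and 4.89 in WT, no peak in KO library 1 and 2.73 in KO library 2, over 12, 9 and 13 fragments in WT and 11 in KO library 2. Fragment numbers overlapped between the genotypes at Arl2bp and Ccnb2, met at Virma and were apart at Ip6k2, while folds were apart at all 4.

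Ends in WT alone among the 2000 best were named after their values were seen. Fnbp4 had 7.29, 6.10 and 6.74 against 4.39 and 4.25, over 18, 14 and 17 against 21 and 22 fragments, so its folds were lower and its fragment numbers higher in KO. Rcan1, a calcineurin inhibitor, had 9.32, 5.44 and 8.98 against 5.23 and 4.32, and Dbp, an output transcription factor of the clock that shares its end with Car11, 5.39, 5.36 and 8.12 against 2.90 and 3.54. Smpd3, a neutral sphingomyelinase, had 6.55, 6.52 and 3.86 against 2.34 and 2.82, and Zfp36, which destabilises inflammatory mRNAs, had 5.73, 8.80 and 4.22 against no peak and 5.84.

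**Figure D3:**
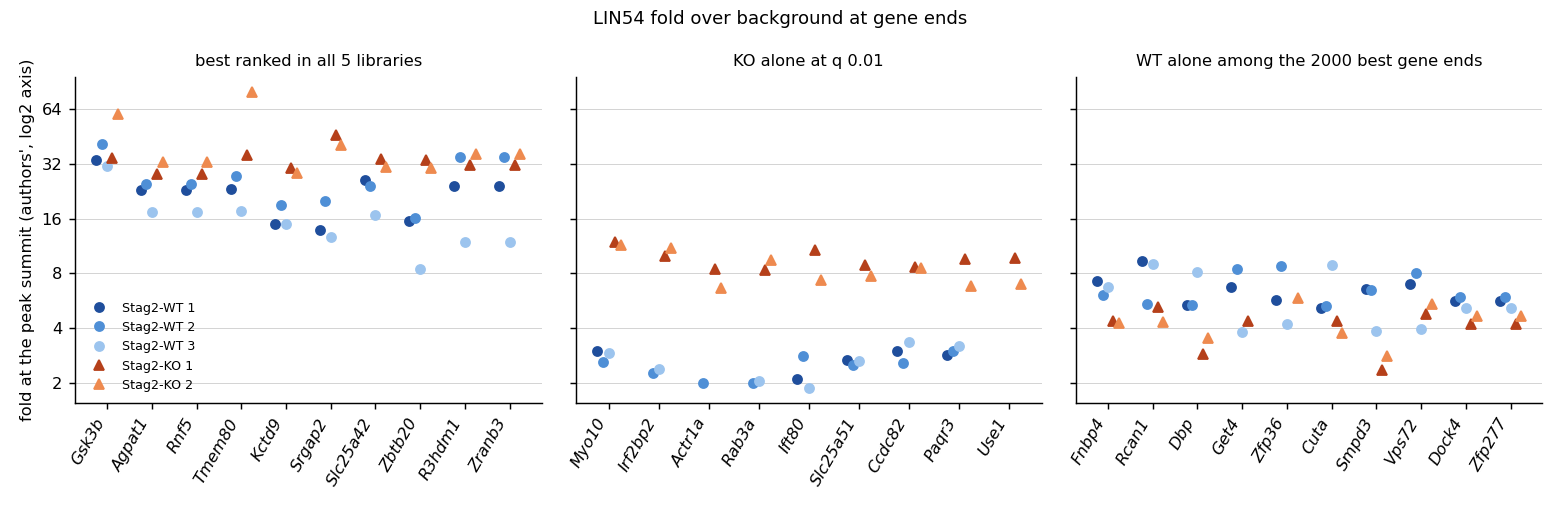
LIN54 folds over background at gene ends, on a log2 axis, 1 point per library where a peak was deposited (circles WT, triangles KO). Left, ends with the best mean rank in all 5 libraries; middle, ends in KO alone at q 0.01; right, ends in WT alone among the 2000 best. On the left both genotypes reach folds above 8, in the middle WT points lie at 1.86 to 3.35 and KO points above 6, and on the right the groups lie closer to each other.

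In distal regions the classes in KO alone and in WT alone stayed unequal at equal list length. Peaks of the 5 libraries were merged where they shared 1 bp, which gave 14170 distal regions at q 0.01. Of these 1711 (12.1%) were in KO alone, 0 (0%) in WT alone and 181 (1.28%) in all 5. Among the 10000 best peaks of each library there were 19938 distal regions, with 727 (3.65%) in KO alone, 13 (0.0652%) in WT alone and 389 (1.95%) in all 5. Leaving out each WT library at that list length gave 785 to 1090 in KO alone and 59 to 110 in WT alone. For comparison, of the 5194 regions at gene ends among the same peaks, 325 (6.26%) were in KO alone and 31 (0.597%) in WT alone. In the WT lists ranks near 10000 lie past q 0.01, as given above. At q 0.01, 42.0% of the KO alone regions had a deposited peak in all 3 WT libraries, against 26.2% of all distal regions. No WT library had one at 79 (4.62%) of the KO alone regions, against 2895 (20.4%) of all distal regions.

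Regions in all 5 libraries lay nearer to genes. Their median width was 1602 bp, against 973 bp in KO alone and 610 bp over all distal regions, but a region merged from more libraries is wider by construction. They lay a median of 21325 bp from a gene end, against 28536 bp in KO alone and 34891 bp over all. Inside protein-coding genes lay 48.1%, 53.2% and 49.9% of these classes. Within 500 bp of the end of a noncoding gene lay 14.9%, 4.27% and 3.46%.

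Of the 5 best ranked distal regions of all libraries, 3 lay over high local background (58.2 to 199 fragments where it could be recovered, against 1.51 to 2.36 at the other 2): 2 at the ribosomal RNA pseudogene Rn18s-rs5 on chromosome 17 (chr17:39847463-39848883 and chr17:39843146-39846823, build mm10; folds of 1.93 to 4.34) and chr13:9011688-9012234 near Gtpbp4 (2.58 to 6.10). The other 2 were chr17:37027584-37029296 near Mog, with folds of 16.2, 23.1, 9.17, 31.4 and 29.8, and chr7:113206065-113207998 inside Arntl, the gene of the clock activator BMAL1, with 11.3, 12.2, 13.3, 16.3 and 28.1. By rank among all peaks the genotypes overlapped at both: 72, 29, 154, 42 and 43 at the Mog region and 171, 122, 34, 244 and 39 at the Arntl region. The best ranked in KO alone was chr7:125801404-125801632 inside D430042O09Rik, with no WT peak and folds of 12 and 6.12. It was followed by chr3:86560377-86560982 inside Lrba (3.07, 2.43, 1.94, 9.13 and 9.49), chr19:21050979-21052441 near Tmc1 (3.58, 4, 2.73, 8.39 and 10.9), chr9:78216686-78217695 near Gsta4 (3.85, 3.72, 2.73, 8.31 and 9.38) and chr13:109880778-109882259 inside Pde4d (2.62, 3.17, 3.11, 8.67 and 7.40).

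Distal LIN54 lay near genes of adhesion, of urothelial identity and of several other lists more often than near all genes. A distal peak was assigned to each gene whose body lay within 20 kb, and longer genes could gain more of them. At q 0.01 1424 (6.89%), 2015 (9.75%) and 463 (2.24%) genes had such a peak in WT and 4432 (21.5%) and 3748 (18.1%) in KO. A region in both KO libraries lay near 2210 genes (10.7%), a region in KO alone near 1254 (6.07%) and a region in all 5 near 174 (0.842%). Among the 10000 best peaks the shares of all genes were 15.9%, 15.5% and 16.2% in WT and 14.2% and 14% in KO, and list counts were read against these. Some signalling lists stood above them in every library, while the Notch, Hedgehog, NF-kappaB and interferon lists did not. TGF-beta and BMP genes had 19, 17, 13, 17 and 13 of 47. Receptor tyrosine kinase and MAPK genes had 21, 28, 21, 18 and 26 of 71, and Hippo genes 19, 9, 10, 13 and 11 of 38. Endothelial markers had 3, 4, 1, 3 and 4 of 10, above all genes except in WT library 3. Median gene lengths in these lists were 39613 to 62660 bp, against 17491 bp over all genes.

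Adhesion genes stood high. Of 26 adherens junction and desmosome genes, 11, 12 and 7 had a distal peak within 20 kb in WT and 12 and 16 in KO; their median gene length of 46868.5 bp was above the 17491 bp of all genes. At q 0.01, 9 of the 26 had a region in KO alone: Cdh1, Ctnna1, Ctnnd1, Jup, Dsp, Vcl, Plekha7, Actn1 and Perp. Gene regions in this and the next paragraph were chosen after their values were seen. Within Cdh1, the gene of E-cadherin, chr8:106615725-106616839 had folds of 3.58, 2.60, 3.89, 7.81 and 5.01. Within Ctnnd1, the gene of p120-catenin, chr2:84649446-84651790 was marked in all 5 libraries (8.08, 4.76, 6.09, 6.59 and 11.2). The WT and KO values overlapped at the Ctnnd1 region; the Cdh1 region was chosen as one in KO alone.

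Luminal urothelium genes, rarely marked at their ends, had 14, 14 and 8 of 35 members near a distal peak in WT and 16 and 18 in KO, with a median gene length of 9643 bp. For basal genes the counts were 7, 11, 9, 10 and 10 of 23, and for urothelial transcription factors 12, 17, 10, 15 and 17 of 44. Near Krt18, a keratin of simple epithelia, chr15:102015600-102018390 had folds of 7.67, 5.36, 4.90, 10.5 and 7.93. Within Gata3, a transcription factor of luminal cells, chr2:9877945-9881036 had 4.72, 5.59, 3.81, 6.45 and 5.97. Both were marked in all 5 libraries at q 0.01. A region within Grhl1, a grainyhead-like factor of epithelia, reached 17.3 and 12.9 in KO against 4.98, 6.55 and 2.89 in WT (chr12:24591897-24594148), and one within Grhl2 was in KO alone (chr15:37317294-37318632; 3.29, 2.60, 3.22, 4.77 and 7.04).

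Clock and immediate early genes were marked at both kinds of place. Circadian genes had 7, 7 and 9 of 22 members near a distal peak in WT and 11 and 9 in KO, and immediate early genes 17, 18 and 13 of 46 in WT and 20 and 16 in KO. The region 16.1 kb from Fos, chr12:85454844-85457813, had folds of 10.1, 10.7, 8.44, 10.4 and 9.50, with WT and KO overlapping. Short housekeeping genes had few distal peaks: 5, 6, 5, 4 and 4 of 75 ribosomal protein genes and 5, 6, 6, 6 and 3 of 73 oxidative phosphorylation genes. At equal list length both KO counts were above every WT count for luminal genes and for autophagy genes (8, 7 and 9 against 11 and 11 of 40), and below for proteasome genes (5, 4 and 4 against 3 and 2 of 38), ribosomal protein, ubiquitin system and cohesin genes, and for all genes. All others of the 44 function lists overlapped between the genotypes. None of these differences was tested.

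**Figure D4:**
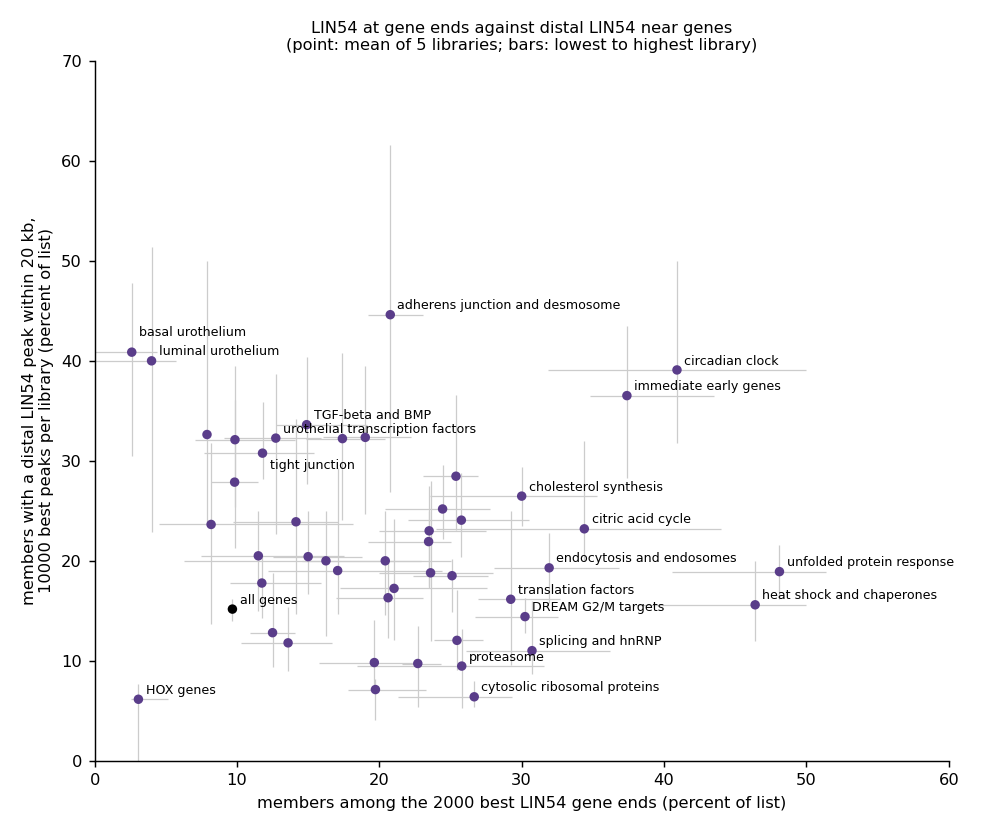
LIN54 at gene ends against distal LIN54, by gene function. Each point is a list, at its mean percent among the 2000 best gene ends (horizontal) and with a distal peak within 20 kb among the 10000 best peaks (vertical); bars run from the lowest to the highest of the 5 libraries. Junction, luminal and basal genes lie at the upper left, unfolded protein response and chaperone genes at the lower right, and circadian clock and immediate early genes high on both axes.

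CCAAT and not the CHR was frequent in the promoters that LIN54 marked best. Of 852 promoters of genes marked in all 5 libraries at q 0.01, 67.8% held CCAAT, against 42.2% of 739 in KO alone and 38.9% of all promoters. The CHR was in 14.9%, 14.2% and 17.4%. In each library the CCAAT share fell with rank, from 66.2%, 62.6%, 72.2%, 65.8% and 66.4% among its 500 best promoters to 40.2%, 42.0%, 38.5%, 42.2% and 42.8% among the about 2000 promoters next after its best 2000. The CHR stayed between 10.9% and 16% in every bin, below the share of all promoters. Genotypes did not separate in the best bin. Promoters in all 5 libraries had a median of 22 CpG, against 14 over all promoters. Those without a deposited peak in any library had a median of 4 CpG, and 22.1% held the CHR. CHR shares were not read at like CpG number, so the part of base composition in them was not tested.

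The classes at equal list length, here from a ranking of promoters alone and so of other sizes than those of gene ends, gave the same order. Of 894 promoters among the 2000 best of all 5 libraries 66.1% held CCAAT, of 49 in WT alone 63.3% and of 106 in KO alone 45.3%. Of all promoters with 30 or more CpG 28.05% held CCAAT, so shares were also read within groups of CpG number. With 10 to 19 CpG, 74.6% of promoters in all 5, 50.7% in KO alone and 42.5% of all held CCAAT; with 20 to 29 CpG, 66.5%, 38.0% and 39.9%. The ETS element CCGGAAG, searched on both strands, was in 12.2% of all promoters, 17.0% of those in all 5 and 23.3% of those in KO alone. In the same order its shares were 2.78%, 18.2% (of 22 promoters) and 4.62% with 0 to 9 CpG. They were 16.3%, 17.1% and 21.3% with 10 to 19 CpG, and 22.6%, 19.04% and 29.7% with 20 to 29 CpG. With 30 or more CpG they were 17.5%, 11.5% and 23%. From 20 CpG up, the ETS share in all 5 was thus below that of all promoters, while KO alone was above it in every group. By function, CCAAT was in 68.8% of the promoters of unfolded protein response genes, 72.0% of cholesterol synthesis genes and 12.5% of luminal genes. Promoters of G2/M targets held the CHR in 77.1% and CCAAT in 74.3%.

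LIN54 summits lay upstream of the start. Over the 2000 best promoters of each library the median summit, in bp relative to the start, was at -131, -140 and -109 in WT and -140.5 and -137 in KO, and 74.6% to 80.1% of summits were upstream. In the printed promoter of Slc25a42, summits fell at -252, -237, -288, -232 and -216, near the far end of the window, 2 of them beyond it. At Myo10 they fell at -133, -89 and -137 in WT and -68 and -51 in KO.

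**Figure D5:**
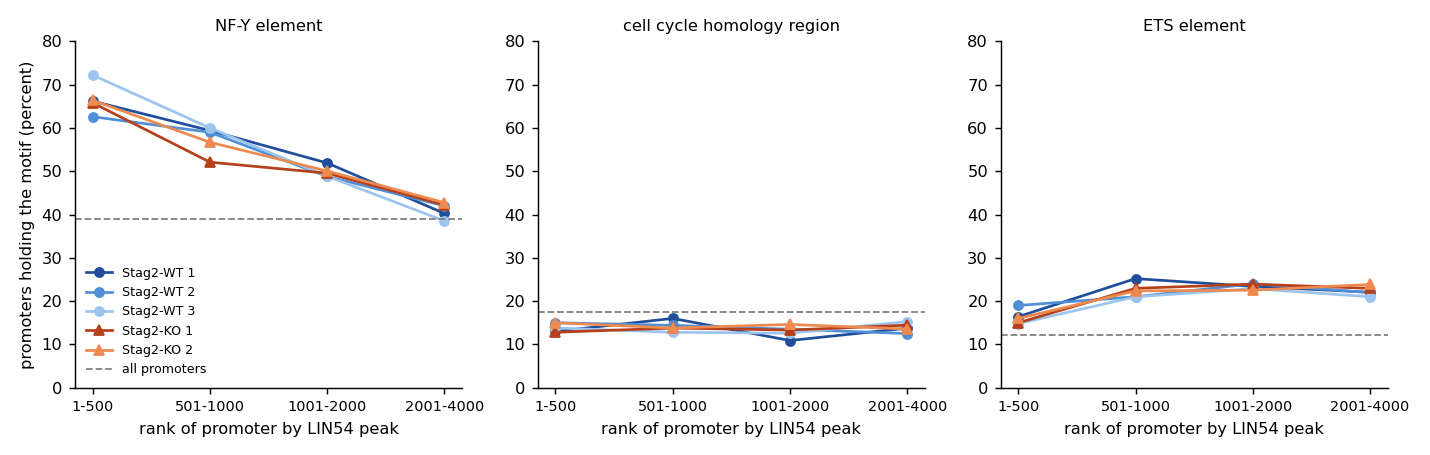
Motifs in promoters by LIN54 rank. Points give the percent of promoters in each bin of rank that hold CCAAT (left), the CHR (middle) or the ETS element (right), on either strand of a window of 250 bases before to 50 after the start; circles are WT and triangles KO libraries, and dashed lines are the share of all promoters. The NF-Y element falls from 62.6% or more in the best bin to 42.8% or less in the last, while the CHR stays at 10.9% to 16%.

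LIN54 regions were set against the STAG2 and p130 peaks at q 0.01 by an overlap of 1 bp. A wider region can meet more peaks, and the classes differ in width. Median widths of distal regions were 1602 bp in all 5, 973 bp in KO alone and 610 bp over all. For gene end regions they were 1610, 1127.5 and 1103 bp. The part of width in the shares below was not tested. Of all 14170 distal LIN54 regions, 27.4% and 22.6% overlapped peaks of the STAG2-WT libraries and 2.72% and 14.2% those of the STAG2-KO libraries. Of the 181 distal regions in all 5 LIN54 libraries, 91.7% and 91.2% overlapped peaks of the STAG2-WT libraries and 33.7% and 75.7% those of the STAG2-KO libraries. Of the 1711 in KO alone the shares were 41.0% and 40.3%, and 3.51% and 28.8%. At gene ends, regions in all 5 overlapped STAG2-WT peaks in 97.3% and 91.5% and regions in KO alone in 86.3% and 43.1%, against 87.1% and 54.0% of all gene end regions. The STAG2 lists differ in length, as given above, and the shares move with it: with the 10000 best STAG2 peaks of each library, 19.5% and 34.3% of the distal regions in KO alone overlapped those of STAG2-WT and 16.1% and 34.5% those of STAG2-KO. The p130 libraries had 313 to 886 peaks; they overlapped 13.7% to 36.4% of the gene end regions in all 5 and 1.34% to 4.01% of those in KO alone, against 3.48% to 10.8% of all gene end regions.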

How the data were processed

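CUT&RUN reads of each library were processed by the authors with bcl2fastq, Bowtie2 and MACS2 on build mm10, per the submitters' processing notes; versions, settings and the use of a control in peak calling are not given in the sources used here. Each deposited list gives per peak a fold over background (ratio), -log10 p-values and q-values, and a score, all as the authors deposited them. Replicates were called separately. Peaks were not re-called: those at q 0.01 on chromosomes 1 to 19 were used, and lists were also cut to equal length by p. Fragments and local background at a summit were solved from the deposited fold and -log10 p under a Poisson model; this gave a whole fragment number, within 0.0003 on the log10 scale, at 99.9916% to 99.9997% of summits per library. The depth of a library was read from its median background, and a call at q 0.01 rested on a median of 12 to 14 fragments.

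Libraries were grouped by their labels. Gene ends came from a RefSeq table of protein-coding genes of the same build, which gives no strand. Values with 1 number per library went into a two-sided exact permutation test, with Benjamini-Hochberg adjustment over 3 tests; classes of gene ends and regions were counted. Gene lists (2479 of 2523 genes matched) and all members were chosen with earlier results of these data known. Genes were named by rule: the DREAM and MuvB genes, up to 3 best ranked genes per list in all libraries, in KO alone and in WT alone, the 10 best of each class outside the G2/M, G1/S and ribosomal protein lists, and the 5 best distal regions; others are said to be chosen after their values were seen. A gene that this rule names in KO alone is not reported here. Alternatives were other thresholds, list lengths, windows and left-out libraries. Chromosomes X and Y were left out, and samples of the pMNase control are not used here. Counting was tested on simulated data. Scripts ran under Python 3.11.15, with pandas 2.3.3 for tables, NumPy 2.4.6 and SciPy 1.17.1 for numerics, and Matplotlib 3.10.9 for plots.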

Additional observations from a re-analysis of the deposited data

Results flagged for a closer look

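The number of peaks at q 0.01 moved in opposite directions for the 2 antibodies between Stag2-KO and Stag2-WT urothelium. For LIN54 the KO minus WT difference in mean log2 peak number was 1.82, with each of the 2 KO libraries above each of the 3 WT libraries. For STAG2 it was -2.67, with each of the 2 KO libraries below each of the 2 WT libraries. The difference between the antibodies was not tested.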

How the results depend on the processing

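The log2 ratio of peak numbers stayed above 0 at q 1e-05 and when any library was left out (1.36 to 2.16), but over the deposited lists it was -0.12. The gene end share of KO minus WT reversed to 8.62 points among the 10000 best peaks and 0.292 over the deposited lists; leaving out a library gave -20.9 to -10.6. The distal share reversed to -10.2 points among the 10000 best peaks; among the 2000 best peaks both kept their direction, at -2.575 and 3.475 points. For the distal share, leaving out a library gave 10.7 to 19.3. No exact test could go below p = 0.1.

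Gene ends in KO alone (868) became 372 and 169 among the 10000 and 5000 best peaks, 88 among the 2000 best gene ends, 442 over deposited peaks and 23 where absence meant no deposited peak; they were 944 to 1815 without 1 library at q 0.01, 447 to 872 among the 10000 best peaks and 125 to 292 among the 2000 best ends. Gene ends in WT alone (4) became 36, 34 and 46 in the same 3 lists of equal length, of which the first is longer than the q 0.01 list of every WT library, 1 at q 1e-05, 294 over deposited peaks, 0 where absence meant no deposited peak and 13 within 250 bp; without 1 library they were 11 to 30, 76 to 108 and 90 to 124.

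Distal regions in KO alone (1711) became 727 among the 10000 best peaks, 678 at q 1e-05, 22916 over deposited peaks and 1043 beyond 20000 bp; without 1 library they were 1737 to 6651, and 785 to 2553 among the 10000 best. Distal regions in WT alone (0) became 13 among the 10000 best peaks and 5557 over deposited peaks; without 1 library they were 1 to 24, and 27 to 110. Leaving out any library, WT or KO, drops a condition of both classes, so counts without 1 library can only stay or rise by construction. The cause of the other changes was not tested.

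Replicate numbers were read as pairs in a fit with a replicate block, which leaves out WT library 3: the log2 ratio was 1.36, the gene end difference -10.6 points and the distal difference 10.7 points (exact test, p = 0.5 each, the smallest that 2 pairs allow). Over 5160 gene ends the deviations of same-numbered libraries had a correlation of 0.0139. Each library's median fold was taken out first and there were only 2 pairs. The value therefore cannot show whether same-numbered libraries were prepared together. The lists at equal length by 2000 gene ends or peaks, and those without 1 library at equal length, were chosen after seeing the data.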
